A study of Mus musculus with 6 samples.

Results

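Vegfa, Egr1, Flt3 and Pim1 are 4 genes that earlier work placed under the transcriptional control of chromatin-bound CDK6 in haematopoietic cells. They were chosen by name from that work, and they are 4 of the 22028 protein-coding genes in the GENCODE M21 annotation. CDK6 binding was taken from every peak that overlapped a promoter, the gene body or the 20000 bp to either side, with promoters taken as the 2000 bp upstream and 200 bp downstream of each annotated transcript start. Peaks of the 4 lists that overlapped each other were merged into regions. The 4 loci held 60 of the 56748 regions of the genome.

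The peaks came from ChIP-seq against the HA tag in mouse pre/pro-B cell lines transformed by BCR::ABL1 (p185). All lines were Cdk6-/-, so the tagged protein was their only CDK6. One group of libraries (CDK6-WT, n = 2) came from cells that overexpressed HA-tagged wildtype CDK6, and the other (CDK6-K43M, n = 2) from cells that overexpressed an HA-tagged kinase-inactive mutant. The question was whether the kinase-inactive protein occupies these genes as the wildtype does. Both groups shared the oncogene, the loss of endogenous CDK6, the tag, the antibody and a double crosslink with DSG and formaldehyde. The tagged proteins were expressed from a transgene and not from the Cdk6 locus, so occupancy is that of an overexpressed protein. The labels do not say whether the replicates came from separate cultures or lines, and p-values therefore measure only the spread between libraries, which may be technical. The 2 input libraries were not analysed here.

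CDK6 is a cyclin-dependent kinase that drives the G1 phase of the cell cycle together with D-type cyclins. It has no DNA-binding domain and reaches chromatin through transcription factors, among which STAT3 and the AP-1 subunit JUN are established partners. Among the 4 genes, Vegfa encodes the main secreted ligand of blood vessel growth. Egr1 encodes an immediate-early zinc finger transcription factor, Flt3 a class III receptor tyrosine kinase of early lymphoid and myeloid progenitors, and Pim1 a serine/threonine kinase that is induced by cytokines through STAT factors.

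The lists held 34729 to 39797 peaks, with 34959 ± 325 peaks in CDK6-WT and 38551 ± 1763 peaks in CDK6-K43M (SD, n = 2). The lists give no read totals, so the depth was recovered in relative terms from the peak statistics, and it lay between 9.56 and 12.0 reads per kb. Because −log10 q grows with depth, every peak was ranked within its own list. Its percentile is the mean rank of its −log10 q as a percent of the list length, so that the strongest peak of a list stands near 100.

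Sequences under 4 summits are given because 3 of them lie under the site of a locus with the highest mean percentile and the other under the promoter site of Vegfa that led in both CDK6-K43M lists. Each is the reference sequence (GRCm38.p6, the mm10 chromosomes) from 100 bp before to 100 bp after the summit, written 5′ to 3′ on the strand of the gene, with capitals for a match to one of the motifs listed further on.
Vegfa summit at −13515 bp, chr17:46045784-46045984, mm10, minus strand: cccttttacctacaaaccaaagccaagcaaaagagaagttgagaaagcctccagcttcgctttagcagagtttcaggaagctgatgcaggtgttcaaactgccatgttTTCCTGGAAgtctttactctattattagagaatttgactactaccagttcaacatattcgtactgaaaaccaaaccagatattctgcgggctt
Vegfa summit at −1976 bp, chr17:46034245-46034445, mm10, minus strand: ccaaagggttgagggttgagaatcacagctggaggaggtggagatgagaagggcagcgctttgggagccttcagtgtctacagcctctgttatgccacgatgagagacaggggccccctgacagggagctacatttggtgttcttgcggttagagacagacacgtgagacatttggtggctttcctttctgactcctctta
Flt3 summit at 37267 bp, chr5:147363122-147363322, mm10, minus strand: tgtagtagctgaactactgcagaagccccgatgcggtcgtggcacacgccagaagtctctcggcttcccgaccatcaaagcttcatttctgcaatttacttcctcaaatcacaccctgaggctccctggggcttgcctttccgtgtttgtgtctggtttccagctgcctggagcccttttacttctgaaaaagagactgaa
Pim1 summit at −298 bp, chr17:29490355-29490555, mm10, plus strand: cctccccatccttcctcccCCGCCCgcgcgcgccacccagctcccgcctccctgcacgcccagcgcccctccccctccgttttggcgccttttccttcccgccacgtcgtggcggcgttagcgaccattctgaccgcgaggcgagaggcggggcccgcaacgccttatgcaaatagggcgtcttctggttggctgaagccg
The window upstream of Vegfa held 1 match to the STAT motif, and the window before Pim1 held 1 GC box. The window at −1976 bp of Vegfa and the window inside Flt3 held no match to any of the 8 motifs.

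CDK6 occupied the promoters of all 4 genes with both variants. A region counted as bound by both variants if 3 or 4 of the lists had a peak in it, which is the rule of the study. By this rule 4 of 4 members had a promoter region bound by both, against 41.3% of all protein-coding genes. A promoter region found in all 4 lists was present in 4 of 4 members and in 33.2% of all protein-coding genes. Promoter peaks were listed for 47.0% and 40.1% of protein-coding genes in CDK6-WT replicates 1 and 2, and for 48.5% and 39.4% in CDK6-K43M replicates 1 and 2.

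Binding was not limited to the promoters. Of the 60 regions, 31 were bound by both variants, against 40.5% of all regions, and 22 were found in all 4 lists. None of the 60 was unique to CDK6-WT, meaning that both CDK6-WT lists and neither CDK6-K43M list had a peak there, and none was unique to CDK6-K43M. Over the genome 0.359% and 1.26% of regions fell in these classes. Of the 31 shared regions, 12 touched a promoter, 3 an exon, 2 an intron, 10 the upstream flank and 4 the downstream flank.

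**Figure D1:**
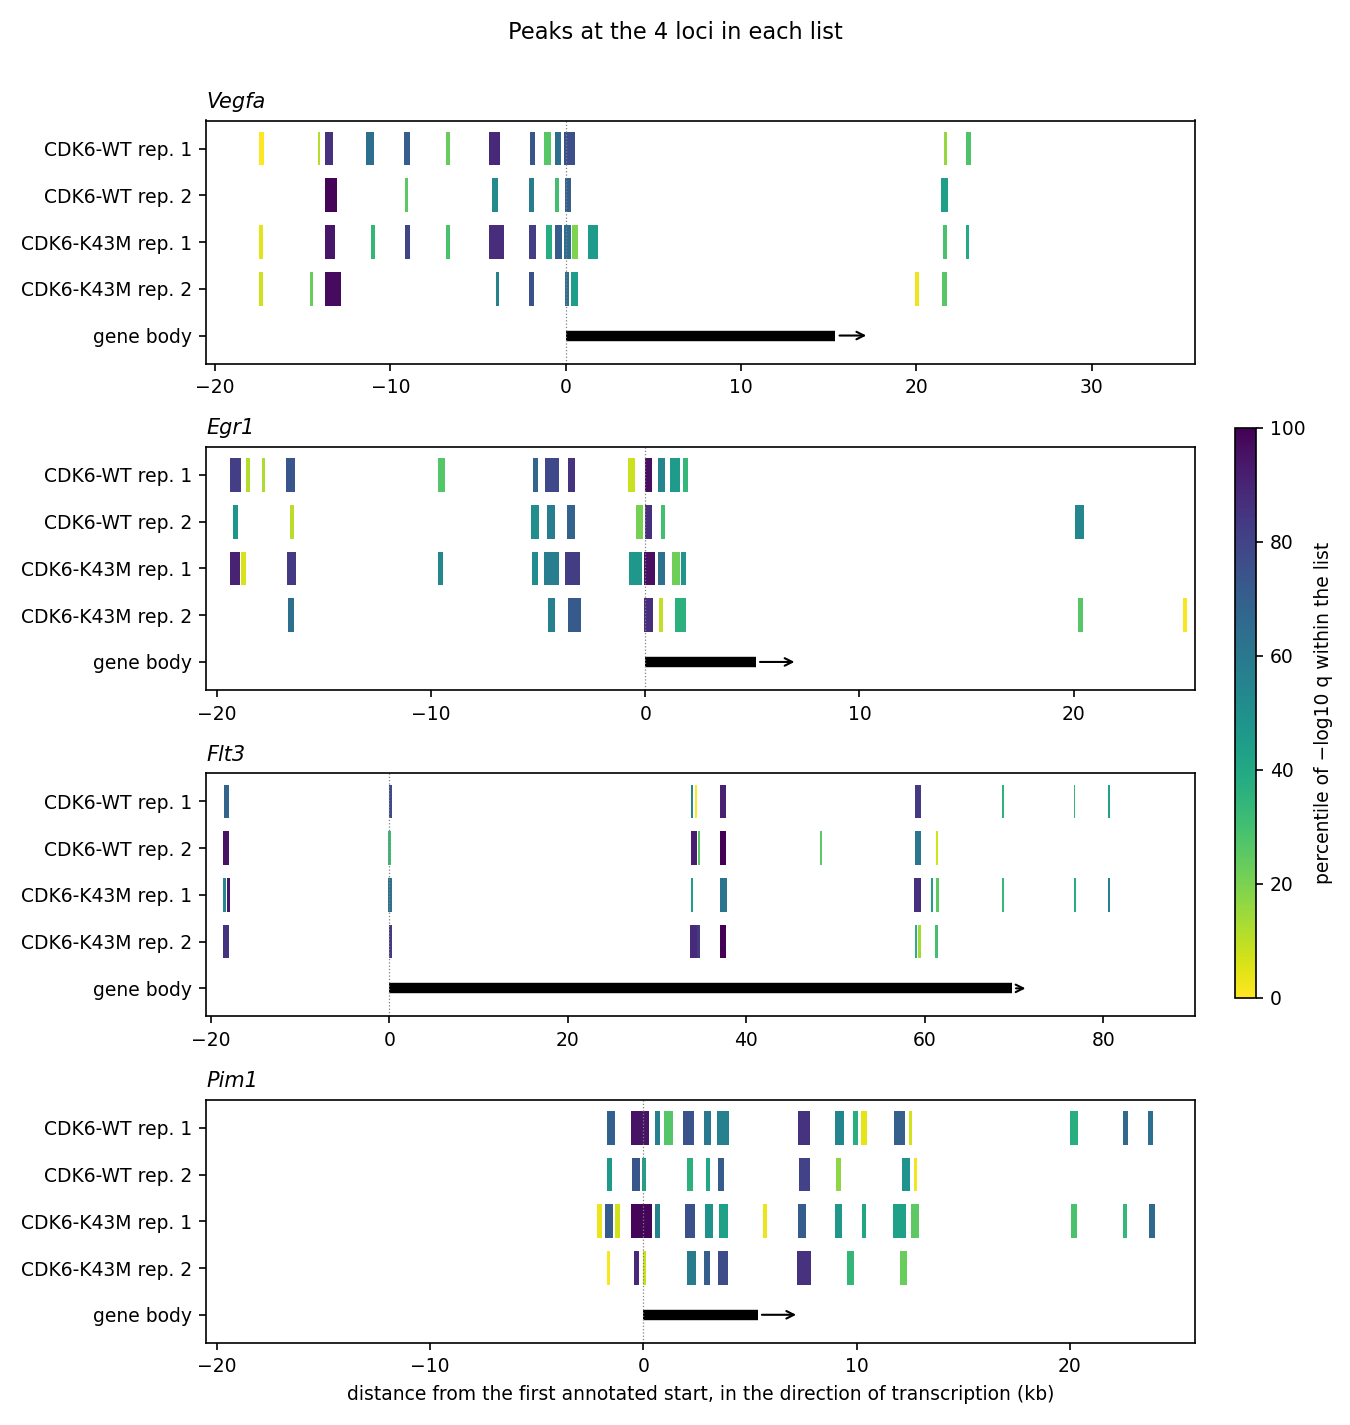
Peaks of the 4 lists along each locus, with distance from the first annotated start in the direction of transcription (kb) on the x axis and 1 row per list. Each box is a peak at its true width, coloured by the percentile of its −log10 q within its own list, and the black bar is the gene body. The Vegfa and Egr1 peaks crowd upstream of and at the start, the Pim1 peaks lie from the start into the downstream flank, and the Flt3 peaks are spread over the gene body.

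The loci differed in how densely they were covered. Egr1 carried 9 regions bound by both, Vegfa 8, Pim1 8 and Flt3 6. At least as many were found at 1.53% of protein-coding genes for Egr1, 2.38% for Vegfa and Pim1 and 6.06% for Flt3. Per 10 kb of locus Egr1 had 1.99 regions, Pim1 1.76, Vegfa 1.44 and Flt3 0.547. This density was reached by 0.209% of protein-coding genes for Egr1, 0.413% for Pim1, 0.976% for Vegfa and 15.1% for Flt3, whose gene body is the longest of the 4 with 69749 bp. These shares are a description of where the members stand, since the genes were not drawn at random. The order of the loci depended on the threshold. At a minimum −log10 q of 10, Flt3 had 4 regions bound by both, Vegfa and Pim1 3 each and Egr1 2. The count also depended on merging, since joining peaks within 500 bp left 21 such regions at the 4 loci in place of 31.

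**Figure D2:**
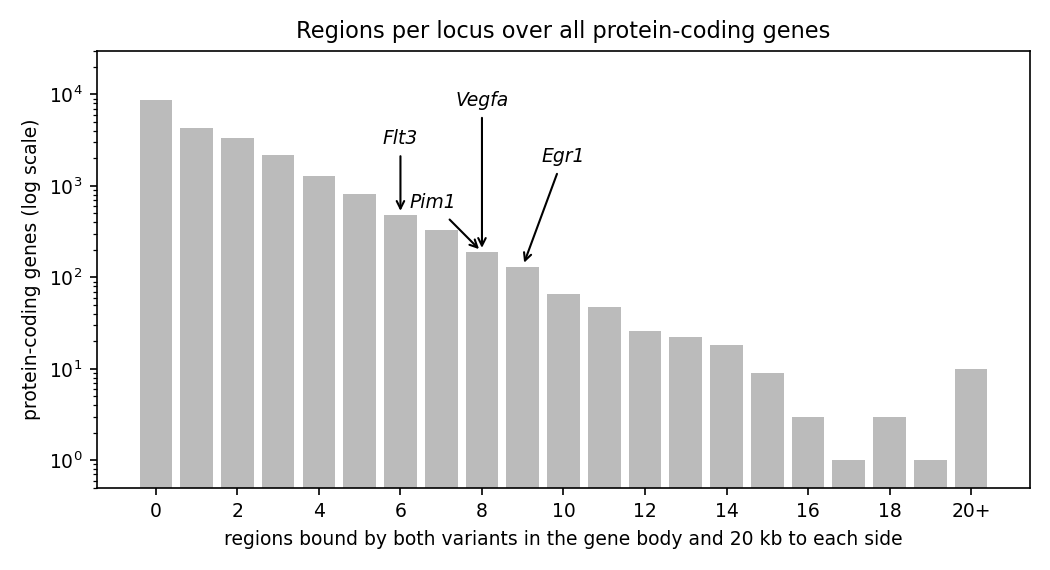
Number of regions bound by both variants in the gene body and the 20000 bp to each side (x axis) over all protein-coding genes (y axis, number of genes on a log scale). Arrows mark Flt3 at 6 regions, Vegfa and Pim1 at 8 and Egr1 at 9, all in the upper tail of the distribution.

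Vegfa (ENSMUSG00000023951.17, chr17:46016993-46032369 on the minus strand, mm10) has 13 annotated transcripts with 8 starts. Its strongest site in 3 of the 4 lists lay outside the promoter, at −13515 bp (chr17:46045174-46046126), in the upstream flank. There the peak stood at percentile 85.6 in CDK6-WT replicate 1, 99.0 in CDK6-WT replicate 2, 94.4 in CDK6-K43M replicate 1 and 97.2 in CDK6-K43M replicate 2. All 4 lists thus had it in their upper part, and the values of the variants overlapped. It was covered by 35, 54, 54 and 39 reads in the same order, over a local background of 2.06, 1.73, 2.53 and 1.57 reads.

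In CDK6-WT replicate 1 the site at −3917 bp was stronger still, at percentile 88.7. The other lists had it at 52.6 (CDK6-WT replicate 2), 87.1 (CDK6-K43M replicate 1) and 56.3 (CDK6-K43M replicate 2). At this site the replicate 1 lists were high and the replicate 2 lists lower, whichever variant was expressed.

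The Vegfa promoter carried 3 regions bound by both, and they did not rank alike in the variants. The region over the first start (chr17:46031664-46032475, summit in the 5′ exon at 32 bp) stood at 76.1 and 70.2 in CDK6-WT and at 64.8 and 64.0 in CDK6-K43M. Here both CDK6-WT lists were above both CDK6-K43M lists. The region at −1976 bp stood at 73.8 and 58.7 in CDK6-WT and at 82.0 and 75.1 in CDK6-K43M, with both CDK6-K43M lists above both CDK6-WT lists. Reads over its summit numbered 25 and 19 in CDK6-WT and 37 and 19 in CDK6-K43M. The replicate 2 lists thus had equal reads there, over a local background of 2.17 in CDK6-WT and 1.62 in CDK6-K43M. The third, at −510 bp, was called in 3 lists and had no peak in CDK6-K43M replicate 2. By −log10 q, the strongest promoter peak of Vegfa was therefore the one at the start in CDK6-WT and the one at −1976 bp in CDK6-K43M. Ranked by fold enrichment, CDK6-WT replicate 1 also had the peak at −1976 bp above that at the start, at percentiles 78.4 and 67.5.

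Read numbers at the Vegfa start were small. The summit was covered by 33 reads in CDK6-WT replicate 1 (95% exact Poisson interval 22.7 to 46.3), 20 in CDK6-WT replicate 2 (12.2 to 30.9), 28 in CDK6-K43M replicate 1 (18.6 to 40.5) and 16 in CDK6-K43M replicate 2 (9.15 to 26.0). These intervals, like all given here, cover counting error only, and those of the 4 lists overlapped.

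Egr1 (ENSMUSG00000038418.7, chr18:34859823-34864984 on the plus strand) showed the strongest promoter occupancy of the 4 genes on average, and the most even one between the variants. The region over its start had its summit at 90 bp, in the 5′ exon. The peak there stood at percentile 96.4 in CDK6-WT replicate 1, 86.5 in CDK6-WT replicate 2, 96.4 in CDK6-K43M replicate 1 and 86.7 in CDK6-K43M replicate 2. CDK6-K43M minus CDK6-WT was −0.0646 points in replicate 1 and 0.152 points in replicate 2. Within their own list, the replicate 1 peaks thus stood above the replicate 2 peaks for either variant. Promoter peaks as a whole did the same, with medians over genes with a promoter peak of 78.9 and 80.4 in the replicate 1 lists of CDK6-WT and CDK6-K43M and of 59.6 and 58.4 in their replicate 2 lists. Ranked among the promoters of all protein-coding genes instead, Egr1 stood at percentile 94.8 and 94.97 in CDK6-WT replicates 1 and 2 and at 94.1 and 95.1 in CDK6-K43M replicates 1 and 2, without a gap between the replicate numbers. Vegfa stood at 74.6 and 86.0 in CDK6-WT and at 77.5 and 88.9 in CDK6-K43M by this ranking, with the replicate 2 lists the higher ones. Reads over the summit numbered 55 and 27 in CDK6-WT and 60 and 24 in CDK6-K43M.

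Egr1 had 4 promoter regions bound by both, of which those at 702 bp and 1802 bp lie within the transcribed gene, which is short (5162 bp). A further 5 lay in the upstream flank. The sites at −3412 bp and −4452 bp had a peak in all 4 lists, with the former at 85.3 and 68.5 in CDK6-WT and at 82.3 and 72.0 in CDK6-K43M. The site at −16588 bp was the most uneven, at 73.2 and 10.2 in CDK6-WT and at 83.0 and 64.0 in CDK6-K43M. At −19153 bp the region overlapped the promoter of the neighbouring gene Reep2 and cannot be assigned to Egr1 by position. No region in the downstream flank of Egr1 was bound by both.

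Flt3 (ENSMUSG00000042817.15, chr5:147330741-147400489 on the minus strand) has a single annotated start, and its promoter was the weakest of the 4 on average. The peak over the start, with its summit at 123 bp, stood at percentile 77.6 in CDK6-WT replicate 1, 32.0 in CDK6-WT replicate 2, 62.2 in CDK6-K43M replicate 1 and 83.5 in CDK6-K43M replicate 2. The values of the variants overlapped, and the variants ranked in opposite order in the 2 replicate numbers. The summit was covered by 29 reads in CDK6-WT replicate 1 (95% exact Poisson interval 19.4 to 41.6), 15 in CDK6-WT replicate 2 (8.40 to 24.7), 27 in CDK6-K43M replicate 1 (17.8 to 39.3) and 22 in CDK6-K43M replicate 2 (13.8 to 33.3). The antisense gene Gm26597 overlaps this start, and peaks carry no strand.

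The most prominent CDK6 site of the locus lay inside the gene, at 37267 bp (chr5:147362673-147363479), with its summit in an exon of a noncoding Flt3 transcript. It stood at percentile 99.7 in CDK6-WT replicate 2 and 99.4 in CDK6-K43M replicate 2, at 90.8 in CDK6-WT replicate 1 and at 61.3 in CDK6-K43M replicate 1. The replicate 2 lists thus had it among their strongest peaks for either variant. Reads over the summit numbered 66 and 55 in these lists, against 41 (95% exact Poisson interval 29.4 to 55.6) in CDK6-WT replicate 1 and 35 (24.4 to 48.7) in CDK6-K43M replicate 1. The local background was 4.93 reads in CDK6-K43M replicate 1 and 2.37, 1.73 and 1.57 in CDK6-WT replicate 1, CDK6-WT replicate 2 and CDK6-K43M replicate 2, and its part in the low percentile was not tested.

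Intronic CDK6 binding next to this site followed the same order. The region at 33931 bp stood at 53.9 and 43.9 in the replicate 1 lists of CDK6-WT and CDK6-K43M and at 91.5 and 88.1 in their replicate 2 lists. A region at 34671 bp was called in the replicate 2 lists alone, at 25.5 in CDK6-WT and 83.5 in CDK6-K43M. The site at 59285 bp went the other way, with 83.1 and 86.1 in the replicate 1 lists and 61.1 and 36.2 in the replicate 2 lists. Chromosome 5 held 8.12% and 8.03% of the peaks in the replicate 1 lists and 6.45% and 6.40% in the replicate 2 lists. The median background under its peaks was 1.64 and 1.67 times the genome level in the former and 1.19 and 1.14 times in the latter. Over all peaks this median was 1.33 and 1.29 times in the replicate 1 lists and 1.14 times in each replicate 2 list. The part of the chromosome 5 values in the Flt3 percentiles was not tested.

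Upstream of Flt3, a region at −18495 bp was found in all 4 lists, at 67.6 and 95.1 in CDK6-WT and at 94.5 and 85.3 in CDK6-K43M. The replicate 1 values belong to summits at −18075 bp (CDK6-WT) and −18082 bp (CDK6-K43M). The replicate 2 values belong to summits at −18495 bp and −18423 bp. CDK6-K43M replicate 1 had a further peak at −18445 bp, at percentile 53.0. The region overlapped the promoter of the long noncoding RNA gene D5Ertd605e. A region in the downstream flank overlapped the promoter of Urad and was called in the replicate 1 lists alone.

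Pim1 (ENSMUSG00000024014.8, chr17:29490753-29496112 on the plus strand) has 7 transcripts with 7 starts, so its promoter windows cover much of the gene. The region over the first start (chr17:29490155-29491163, summit at −298 bp) stood at percentile 95.1 in CDK6-WT replicate 1, 73.4 in CDK6-WT replicate 2, 98.6 in CDK6-K43M replicate 1 and 88.8 in CDK6-K43M replicate 2. CDK6-K43M was the higher one within each replicate number, while the values of the variants overlapped. Reads over the summit numbered 42 and 21 in CDK6-WT and 63 and 25 in CDK6-K43M. The antisense gene Gm26885 overlaps this promoter, and the signal cannot be divided between the 2 genes. Another promoter region in all 4 lists, at −1571 bp, stood at 69.6 and 46.3 in CDK6-WT and at 70.9 and 0.855 in CDK6-K43M. CDK6-K43M minus CDK6-WT was 1.36 points there in replicate 1 and −45.4 points in replicate 2.

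CDK6 also covered the Pim1 gene body and what lies past it. Regions in all 4 lists had their summits at 2156 bp, 3005 bp and 3629 bp, the last of which touched an exon. In the downstream flank the site at 7502 bp was the strongest, at 85.2 and 80.1 in CDK6-WT and at 71.3 and 85.8 in CDK6-K43M. No region in the upstream flank of Pim1 was called in any list outside the promoter windows. The site at 12092 bp (chr17:29502466-29503665) was weaker and stood at 70.0 and 48.7 in CDK6-WT and at 43.1 and 22.9 in CDK6-K43M. CDK6-K43M minus CDK6-WT was thus −26.9 points in replicate 1 and −25.7 points in replicate 2. In replicate 1 its strongest peak had 24 reads in CDK6-WT (95% exact Poisson interval 15.4 to 35.7) and 20 in CDK6-K43M (12.2 to 30.9). In replicate 2 it had 16 (9.15 to 26.0) and 11 (5.49 to 19.7), so the intervals of the variants overlapped in each replicate number.

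**Figure D3:**
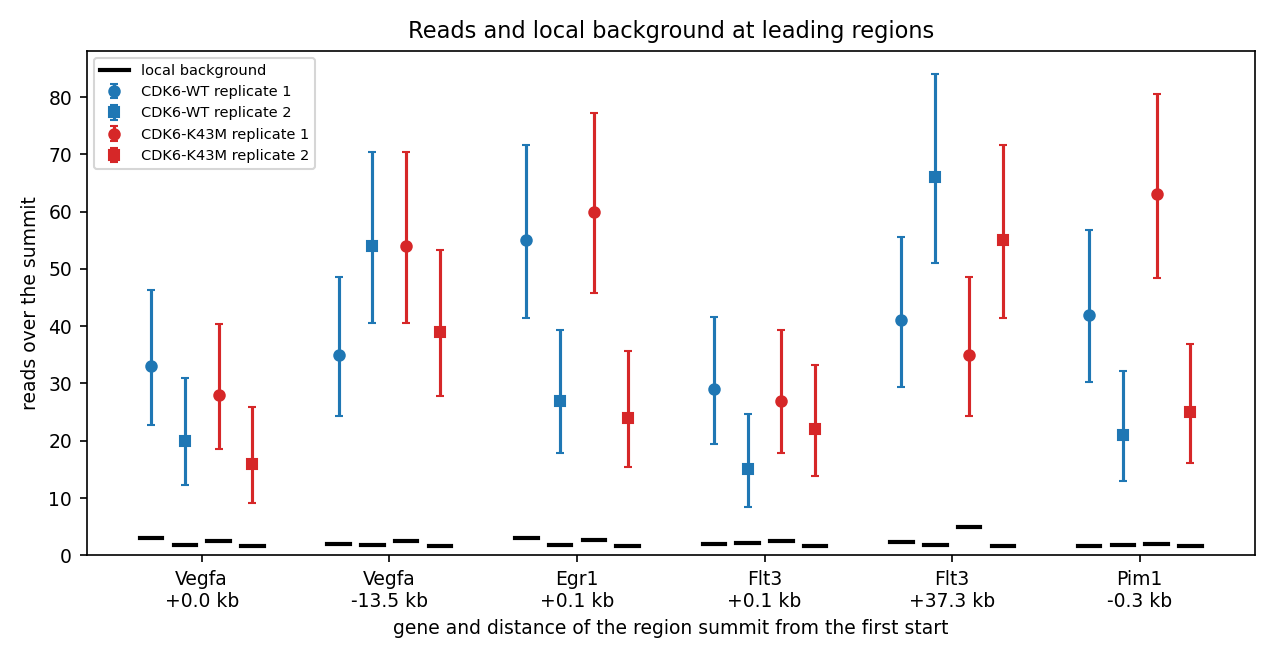
Reads over the summit at 6 leading regions (y axis, number of reads), with 1 point per library and bars for the exact 95% Poisson interval. Black dashes give the local background. At each of the 6 regions all 4 libraries lie well above their background, and the replicate 2 libraries are the highest at the Flt3 site inside the gene but the lowest at the Egr1 and Pim1 promoters.

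The variants were then compared by the strongest promoter peak of each gene. Egr1 differed by 0.0435 percentile points between CDK6-K43M (91.5 ± 6.86) and CDK6-WT (91.5 ± 7.02, SD, n = 2, exact two-sided permutation p = 1). Vegfa stood at 78.6 ± 4.87 in CDK6-K43M and at 73.2 ± 4.19 in CDK6-WT, a difference of 5.41 points (exact p = 0.667, n = 2). Pim1 stood at 93.7 ± 6.93 and 84.3 ± 15.4, which differed by 9.39 points (exact p = 0.667, n = 2). Flt3 stood at 72.9 ± 15.1 and 54.8 ± 32.3, which differed by 18.1 points (exact p = 0.667, n = 2). None of the 4 differences exceeded the spread between replicates by this test, which cannot give a p below 0.33 with 2 libraries against 2, so differences of this size were not detectable here.

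**Figure D4:**
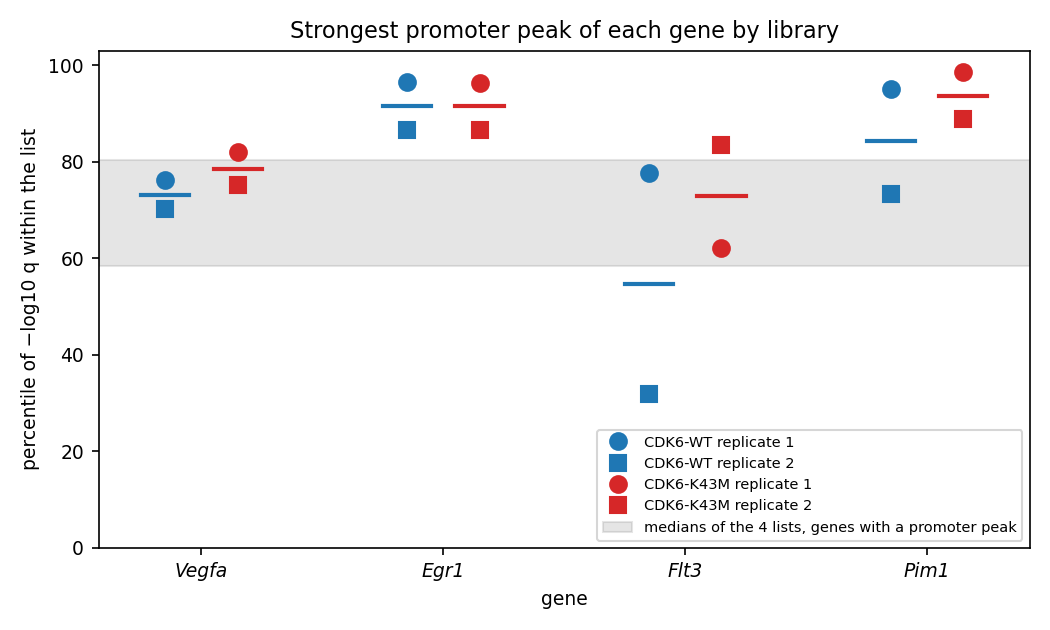
Percentile of the strongest promoter peak within its list (y axis) for each gene and library (points), with the mean of each variant as a line. The grey band spans the medians that the 4 lists gave over protein-coding genes with a promoter peak, 58.4 to 80.4. All Egr1 points lie above the band, and the Flt3 points of CDK6-WT lie farthest apart.

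Within replicate numbers the differences were as follows. CDK6-K43M minus CDK6-WT came to 5.89 and 4.94 points for Vegfa in replicates 1 and 2, and to 3.43 and 15.4 points for Pim1. For Egr1 they were −0.0646 and 0.152 points, and for Flt3 −15.4 and 51.6 points, so that Flt3 had no common direction. The positive value for Vegfa rests on the change of peak from the start to −1976 bp, which in CDK6-WT replicate 1 depended on ranking by −log10 q. When the region over the first start was compared in each list, the difference at Vegfa was −8.80 points, with both CDK6-K43M lists below both CDK6-WT lists (exact two-sided permutation p = 0.333, n = 2).

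In number of peaks the loci did not separate the variants either. CDK6-WT had 51 and 34 peaks at the 4 loci and CDK6-K43M 54 and 34, a difference in means of 1.5 peaks (exact two-sided permutation p = 1, n = 2). The replicate 1 lists had more peaks than the replicate 2 lists at each of the 4 genes, with 16 and 17 against 10 and 9 at Pim1 and 13 and 12 against 9 and 8 at Egr1. The whole lists were closer in length, with 35189 peaks in replicate 1 and 34729 in replicate 2 for CDK6-WT. For CDK6-K43M they held 39797 and 37304.

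The regions present in all 4 lists allow the same comparison site by site. CDK6-K43M stood at least 10 points below CDK6-WT in both replicate numbers at 1 of the 22 member regions, against 3.69% of the 16381 such regions of the genome. That region was the Pim1 site at 12092 bp. At least 10 points above in both replicate numbers was seen at 0 of the 22 member regions, against 8.44% over the genome. The direction was the same in both replicate numbers at 9 of 22 member regions and at 8272 of the 16381. The median size of the difference at member regions was 9.92 points in replicate 1 and 12.6 points in replicate 2, against 8.24 and 11.0 points over all regions.

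**Figure D5:**
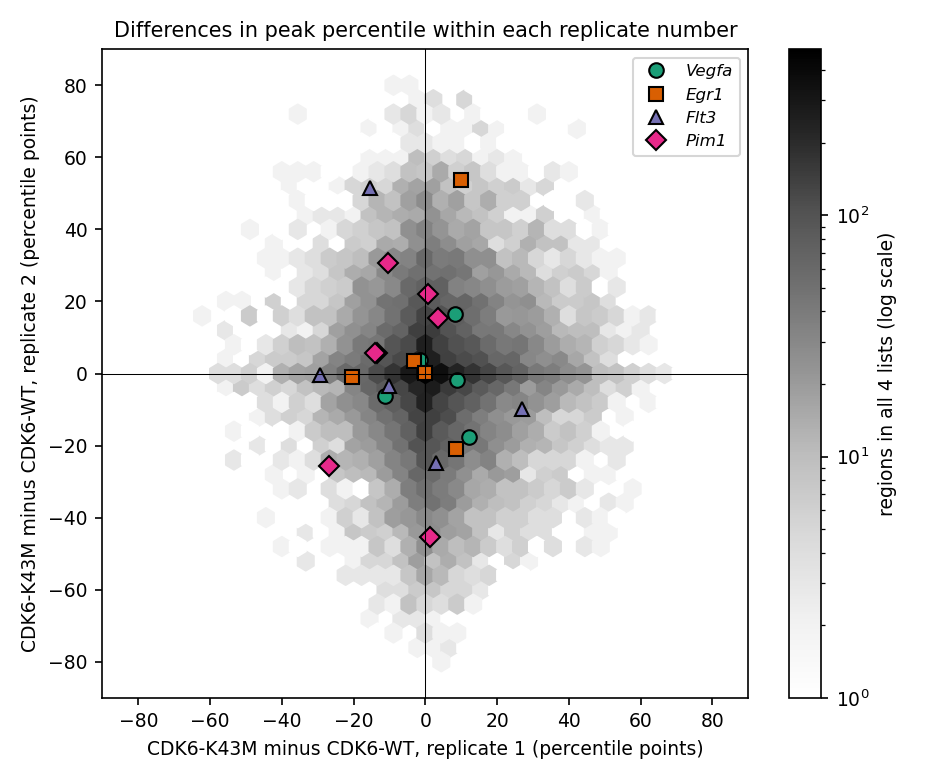
CDK6-K43M minus CDK6-WT in percentile points for replicate 1 (x axis) and replicate 2 (y axis), for the 22 member regions (coloured symbols) over all 16381 regions in all 4 lists (grey, number of regions on a log scale). Member regions lie in all 4 quadrants, with the Pim1 site at 12092 bp alone in the lower left beyond 10 points on both axes.

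In the presence of a peak, the lists at the 4 loci differed by replicate number more often than by variant, since no region was unique to a variant. Of the 60 member regions, 13 were called in replicate 1 for both variants and in replicate 2 for neither, a pattern seen in 13.0% of all regions. For 2 member regions it was the reverse, against 11.0% of all regions. Pim1 contributed 5 of the 13, Vegfa 4, Flt3 3 and Egr1 1. Of the 22 regions in all 4 lists, 14 had the higher mean percentile in replicate 1, against 56.8% of all such regions. Among the 8 with the higher mean in replicate 2 were the sites of Vegfa at −13515 bp and of Flt3 at 33931 bp and 37267 bp.

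The letters under the summits were searched on both strands for binding motifs of CDK6 partners and of factors known at these genes. Windows of 201 bp at the 31 shared member regions were set beside 22975 of the 22979 regions bound by both over the genome, those on assembled chromosomes. The STAT motif (TTCNNNGAA) was present at 3 of 31 regions, or 9.68%, against 7.53% of all. These were the Vegfa site at −13515 bp, the Egr1 promoter region at −219 bp and the Pim1 site at 9123 bp. The Egr1 and Pim1 regions had no peak in CDK6-K43M replicate 2. The Egr1 region stood at percentile 7.99 and 20.8 in CDK6-WT and at 46.7 in CDK6-K43M replicate 1. Its CDK6-WT replicate 1 peak, with the summit at −616 bp, lay outside the window that held the motif. The Pim1 region stood at 54.4 and 17.2 in CDK6-WT and at 46.7 in CDK6-K43M replicate 1. The AP-1 motif (TGANTCA) was present at 0 of 31 against 7.15%, and the CArG box, the site of SRF, at 0 of 31 against 0.762%.

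Motifs common in promoters were found in a minority of member windows. Of the 31 member regions 12 touched a promoter, and the regions over the genome were not matched to them for place. The shares set side by side are therefore a description only. The GC box (GGGCGG) was present at 6 of 31 regions (19.4%) against 25.8% of all, with 3 matches in the Egr1 region at 702 bp. The ETS motif (CCGGAA) was present at 2 of 31 (6.45%) against 14.2%, and the NFY motif (CCAAT) at 2 of 31 (6.45%) against 19.7%. The RUNX motif (TGTGGT) was present at 7 of 31 (22.6%) against 20.7%, of which 3 were at Pim1 and 3 at Flt3, among them the Flt3 promoter. The EGR motif (GCGTGGG) was present at 1 region, at −17448 bp of Vegfa, or 3.23% against 3.04%. That region was weak, at percentile 0.374 in CDK6-WT replicate 1 and at 4.26 and 7.80 in CDK6-K43M. It had no peak in CDK6-WT replicate 2. A GC box can share letters with an EGR motif, and an ETS motif with a STAT motif. A match is a description of the letters and not a measured site of a factor.

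The genes around the members in their pathways differed in promoter binding, and the lists used here are described by counts beside the 41.3% of all protein-coding genes. Among 9 VEGF ligands, receptors and co-receptors, 3 had a promoter region bound by both, the ligand genes Vegfc, Pgf and Vegfb. The ligand gene Vegfd, the receptor genes Flt1 and Kdr and the co-receptor genes Nrp1 and Nrp2 had no promoter peak in any list, and the receptor gene Flt4 had one in 1 list. Of 7 genes of oxygen sensing, which controls Vegfa transcription, 5 were bound, led by the HIF partner Arnt and the prolyl hydroxylase Egln1 with mean percentiles of 72.9 and 72.5, while Epas1 and Egln3 were not.

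Of 9 genes of the EGR family, the NAB co-repressors and the SRF-TCF activators, 7 had a promoter region bound by both. At a minimum −log10 q of 10 this was 1 of the 9, against 17.1% of all protein-coding genes at that minimum. Elk4 was the highest at a mean percentile of 83.0, followed by Egr3 at 58.3, Srf at 51.4 and Egr2 at 49.0. Elk1 had a promoter peak in 1 list, and Egr4 had none. Of 8 class III receptors and ligands related to Flt3, 2 were bound, the ligand genes Csf1 (72.8) and Flt3l (69.4). The ligand gene Kitl and the receptor genes Kit, Csf1r and Pdgfrb had no promoter peak in any list, and the ligand gene Il34 and the receptor gene Pdgfra had one in 1 list each. Downstream of FLT3, 8 of 9 adaptor and brake genes were bound, with the ubiquitin ligase gene Cbl at 94.1 and the adaptor gene Sh2b3 at 92.6. The exception was Gab2, which had promoter peaks in 3 lists, but in separate regions of which none was bound by both.

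Around Pim1, 9 of 10 PIM kinases and substrates were bound, with the translation factor gene Eif4b at a mean percentile of 96.3, the cyclin-dependent kinase inhibitor gene Cdkn1b at 81.1 and the kinase gene Pim3 at 80.4. Pim2 was not bound by both. The count rests on merged regions, and a region that reaches into a promoter can hold peaks that lie outside it. This was so at Cdkn1a, singled out after its values were seen, which counts as bound although only the replicate 1 lists had a peak in the promoter itself. All 10 genes of CDK6 partners on chromatin and D-type cyclins were bound, led by Nfya at 83.9, Nfyc at 83.7, Jun at 83.6, Nfyb at 82.4 and Stat3 at 78.2.

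Promoters of pre/pro-B genes, the labelled cell type, carried peaks and those of other lineages did not. Of 9 pre/pro-B markers 7 were bound by both variants, with the surrogate light chain genes Igll1 and Vpreb1 at mean percentiles of 96.1 and 95.9, and Dntt and Rag1 had promoter peaks in the replicate 2 lists alone. None of 9 markers of T cells (Cd3e, Cd3g, Cd8a), myeloid cells (Elane, Mpo, Ctsg) and erythroid cells (Gata1, Klf1, Epor) had a promoter peak in any list. Occupancy is not expression, and no expression values were used here.

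Other protein-coding genes shared the promoter pattern of the members closely. By Euclidean distance over the 4 percentiles, the nearest to Vegfa were Agap3, Coro7 and Ddx11, at 3.11 to 4.87 points, and the nearest to Egr1 were Gpcpd1, Arfgap1 and Vars, at 2.30 to 2.40 points. For Pim1 they were Slc30a5, Elp3 and Emsy, at 2.20 to 3.45 points. The pattern of Flt3 had more distant neighbours, with Tnfrsf13c, Csnk1g1 and Map3k4 at 9.79 to 12.0 points. Tnfrsf13c encodes the BAFF receptor of B cells and stood at 84.3 and 25.5 in CDK6-WT and at 59.3 and 83.5 in CDK6-K43M.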

How the data were processed

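CDK6 binding was measured by ChIP-seq with 1 library per sample, grouped by variant and replicate number as in the titles. Per the labels and the study's methods, the authors used Trimmomatic (0.36) for trimming, BWA (0.7.15) for alignment to mm10, bedtools to remove blacklisted regions and SAMtools (1.3.1) to drop multimapping reads and reads of low mapping quality. MACS2 (2.1.0) was run on each library. Each peak in the deposited lists has a position, a fold enrichment over local background, which is a ratio, both the p-value and the q-value on the −log10 scale, a score derived from the latter, and the summit offset. The smallest −log10 q of a list was 1.31 to 1.34.

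Peaks overlapping by at least 1 bp were merged, whereas the authors worked with DiffBind, and their definition of shared and unique regions was kept. A region touching several features was placed as promoter before exon, exon before intron and intron before flank, by GENCODE M21 (the authors used another release on the same build). Reads over each summit and local background were solved together from the fold and the −log10 p, with 1 scaling factor per library; 99.986% to 100% of the peaks of a list matched a whole read number within 0.001 of the −log10 p. The background is given in unscaled reads of the library. Relative depth is the genome-wide background per kb of fragment. The recovery and classification were tested on simulated data. Variants were compared over libraries by exact permutation (two-sided, 6 possible assignments). Motif windows reached 100 bp to each side of the summit with the highest percentile in the region.

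The 4 genes, the gene lists, the motifs and the tests were chosen with earlier results of these data known. The regions named are those bound by both or unique to a variant at the 4 loci, with regions of other classes named only where they adjoin one of these or overlap the promoter of another gene. From each list at most 5 genes with a shared promoter region are named, in order of mean promoter percentile, together with genes that lacked one. The 3 genes nearest to each member in promoter pattern are also named. Alternatives were a higher −log10 q minimum, lists of equal length, other promoter windows, flanks and merging rules, ranking by fold, the strongest peak of the locus, a replicate block, and leaving out each library. One more, the region over the first start, was added after the data were seen. Analyses used Python 3.11.15 with numpy 2.4.6, pandas 2.3.3 and scipy 1.17.1.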

Additional observations from a re-analysis of the deposited data

How the results depend on the processing

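All 4 promoters kept a region bound by both under each of the 11 alternatives tried, including each library left out. At a minimum −log10 q of 10 the regions bound by both at the loci numbered 12 in place of 31, and promoters of 17.1% of protein-coding genes then counted as bound. At this minimum the VEGF list held 0 bound genes, oxygen sensing 2, the EGR list 1, class III receptors and ligands 1, and the FLT3 adaptors, PIM substrates and CDK6 partners 5, 5 and 6.

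The difference in peak number at the loci was −2 at this minimum and −2 with lists of equal length. With a library left out it ranged from −8.5 to 11.5, being −7 without CDK6-WT replicate 2 and −8.5 without CDK6-K43M replicate 1. The promoter difference of Vegfa was −5.72 with windows of 500 bp around any start and −8.80 over the first start, and that of Egr1 was −0.693 with lists of equal length. With a library left out, the promoter difference ranged from 1.97 to 8.85 points for Vegfa, −4.92 to 5.0 for Egr1, −4.71 to 40.9 for Flt3 and −1.47 to 20.3 for Pim1. Flt3 and Pim1 turned negative without CDK6-WT replicate 2, and Egr1 without CDK6-WT replicate 2 or CDK6-K43M replicate 1. The causes were not tested. None of these differences passed a test, which the number of libraries did not allow.

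With the replicate number as a block, the differences were 5.41 for Vegfa and 9.39 for Pim1 (exact sign-flip p = 0.5 each, n = 2 pairs), 0.0435 for Egr1 and 18.1 for Flt3 (exact p = 1 each, n = 2 pairs), and 1.5 peaks at the loci (exact p = 1, n = 2 pairs), where 0.5 is the smallest p possible. The labels do not say what a number marks. Over the 16381 regions in all 4 lists, the gap between replicates 1 and 2 in CDK6-WT correlated with that in CDK6-K43M at r = 0.676, as a description.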
